A study of Mus musculus with 4 samples.

Results

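The cells described here are Sertoli cells, the supporting cells of the seminiferous tubule, in mouse testis collected 9 and 14 days after birth (9 and 14 dpp). A cell is represented by its barcode, and a barcode was taken as a Sertoli barcode where it had at least 500 detected genes, at most 20% of its unique molecular identifiers (UMIs, 1 per captured RNA molecule) in mitochondrial genes, at least 0.5% of its UMIs in 9 genes (Sox9, Cldn11, Aard, Cst9, Rhox8, Wt1, Amh, Dhh and Mro), and at most 4 UMIs of the germ cell genes Ddx4, Dazl and Sycp3. The rule chose 1520 of 11631 in vivo barcodes that passed the limits on genes and mitochondrial UMIs: 806 of 5293 at 9 dpp and 714 of 6338 at 14 dpp. The whole series holds 23670 such barcodes of 24851 deposited. The same rule finds 1150 barcodes in testis fragments cultured for 2 days and 480 in fragments cultured for 7 days.

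The study compared testes of these ages with testis fragments taken at 7 dpp and grown as organ cultures, by droplet single-cell sequencing of the 3′ ends of RNA. All 4 libraries are labelled as testis of mice that carry the Acr-Gfp transgene on a C57BL/6 background. By their labels, the in vivo groups compared here differ only in the age at which the testes were collected. The culture groups, given for context, also differ in days of culture. The culture protocol is also given on the in vivo samples, with no other treatment, and titles alone set them apart. Each age is a single library, the labels do not say how many animals it pools, and the protocol text names female gonads and gonad cells grown from stem cells as the source, which goes against the tissue label of all 4 libraries. No difference below therefore has a replicate check, and no p-value is given. Age cannot be told apart from any other way in which both libraries differ. Intervals are exact 95% intervals that cover counting error only, since cells of 1 library share their source.

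Sertoli cells surround the germ cells, hold them in place through junctions, and supply them with growth factors, lactate, iron and retinoic acid. Before puberty they divide and make anti-Müllerian hormone. They then leave the cell cycle, seal the tubule with the tight junctions of the blood-testis barrier and take up secretion under follicle-stimulating hormone (FSH) and androgen. In the mouse these steps fall in the first weeks after birth, when the first germ cells enter meiosis.

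The libraries differed in depth. Sertoli barcodes had a median of 12287.5 UMIs and 3969.5 genes at 9 dpp and of 8266.5 UMIs and 3037.5 genes at 14 dpp, and their summed UMIs were 12927228 and 7099449. The libraries share 37 deposited barcode sequences, of which 3 are Sertoli barcodes in both. The most that any of the 6 pairs of libraries share is 86.

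The 9 genes chose the barcodes, so their levels are a description. The share of UMIs in the 9 genes had a median of 2.16% at 9 dpp and 1.97% at 14 dpp, and 99.4% and 97.2% of the Sertoli barcodes lay at 1% or above. Few barcodes were near the threshold: 1 at 9 dpp and 5 at 14 dpp had 0.4% to under 0.5%, and 1 and 4 had 0.5% to under 0.6%. At the germ gene limit, 20 and 35 Sertoli barcodes had 4 such UMIs, and 16 and 18 barcodes with 5 were left out. The 9 genes summed to 20958 CPM (UMIs per 1000000 UMIs of the summed barcodes) at 9 dpp and 19648 CPM at 14 dpp in the Sertoli barcodes. In germ cell comparison barcodes, which carry at least 0.1% germ gene UMIs and under 0.1% Sertoli gene UMIs, they summed to 163 and 145 CPM, a gap that the limits on both sets fix in part.

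**Figure D1:**
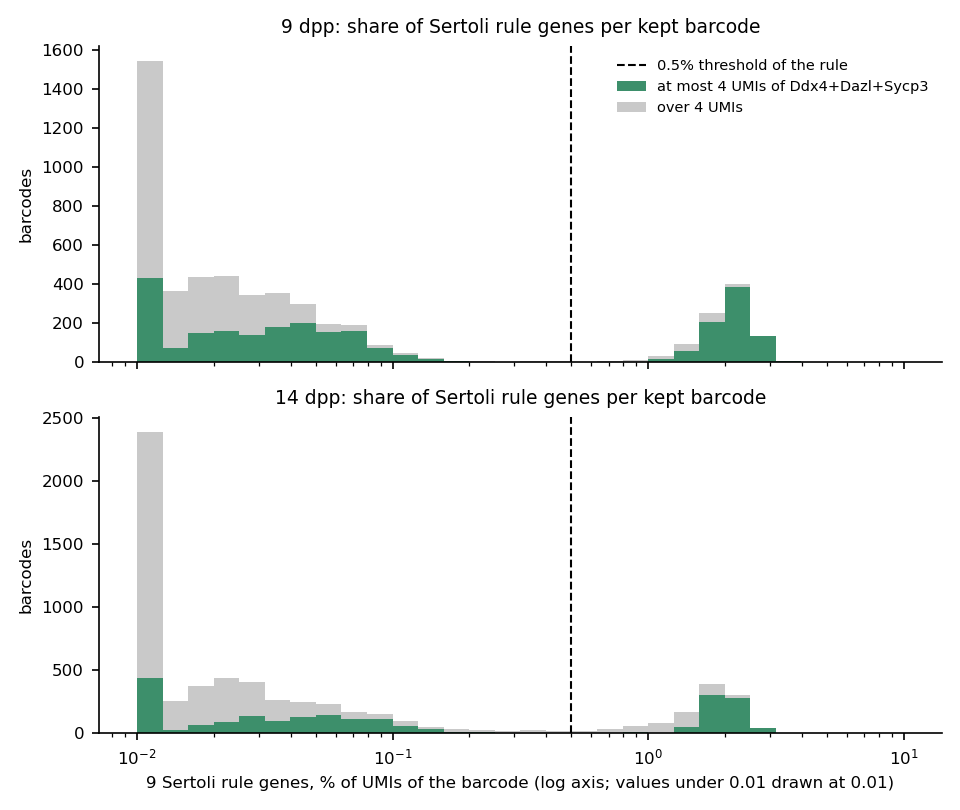
Number of kept barcodes (vertical axis) by the share of their UMIs in the 9 genes of the rule (horizontal axis, percent, log scale) at 9 dpp and 14 dpp, with barcodes at or under the germ gene limit in green and those over it in grey. In both libraries a group of barcodes lies around 2%, apart from the rest and right of the 0.5% threshold, and its grey portion is larger at 14 dpp.

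Sertoli barcodes were 15.2% of kept barcodes at 9 dpp (14.3% to 16.2%, Clopper-Pearson) and 11.3% at 14 dpp (10.5% to 12.1%). The germ gene limit sets much of that gap. It left out 137 of 943 barcodes with enough Sertoli gene UMIs at 9 dpp (14.5%) and 390 of 1104 at 14 dpp (35.3%). Without the limit the shares were 17.8% and 17.4%. Of the barcodes left out, 43 and 225 had over 20 germ gene UMIs, and their medians of 25609 and 19443.5 UMIs were higher than those of the Sertoli barcodes. Scrublet called 17 and 11 of the Sertoli barcodes doublets. Shares of barcodes also depend on how well each cell type survives dissociation, which was not measured.

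Genes of other cells were present in the Sertoli barcodes at levels that differed by cell type. Of 7 stromal markers tested none was past 2-fold between the ages. The full list of 8 summed to 103 CPM at 9 dpp and 101 CPM at 14 dpp. In stromal barcodes the list summed to 12498 and 12863 CPM, a gap fixed in part because stromal genes chose those barcodes. Of 19 germ cell markers outside the rule, 8 were past 2-fold higher at 14 dpp (42.1%, against 4.28% of all genes in the comparison below). None was past 2-fold lower, and the median log2 ratio was 0.90. With the library's mean profile subtracted the median was 0.00. The amount subtracted was set from this same list and negative values were set to 0, so the procedure fixes that value and it is no separate check. Ldhc, a lactate dehydrogenase of meiotic germ cells, had 0 UMIs at 9 dpp and 78 at 14 dpp. Sycp2l, of the meiotic chromosome axis, was at 0 in both, but it had only 0.065 and 0.0298 CPM in germ cell barcodes, too little to be seen here. The germ cell markers summed to 299 and 677 CPM in Sertoli barcodes and to 3806 and 7018 CPM in the other barcodes. Leydig cell markers summed to 189 and 61.3 CPM. Fabp3, a fatty acid carrier, had 147 and 18.2 CPM of these, most of the sum at 9 dpp but not at 14 dpp. Macrophage markers summed to 16.0 and 27.9 CPM, endothelial markers to 13.4 and 11.6 CPM, pericyte markers to 7.66 and 4.23 CPM, and myoid markers to 107 and 129 CPM. Blood cell markers summed to 20.7 and 363 CPM, mostly globin genes described below. The list for rete testis cells summed to 7569 and 8720.4 CPM, nearly all of it Clu, which Sertoli cells also make, while Krt19 of that list was at 0 in both. The part that RNA from other cells plays in the results below was not tested beyond 2 alternatives, a limit of 0 germ gene UMIs and a subtraction of the library's mean profile, whose values stand where they change a call.

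Mitochondrial transcripts took a larger share of Sertoli RNA at 14 dpp. The median per barcode was 5.68% at 9 dpp and 8.68% at 14 dpp, against 5.13% in the other barcodes of both libraries. Of 13 mitochondrial genes, 12 had a log2 ratio above 0, and mt-Nd2, a subunit of complex I, had 1954 and 3564 CPM. Ribosomal protein genes took 12.7% of Sertoli UMIs at 9 dpp and 8.08% at 14 dpp, and 13 of 81 were past 2-fold lower, as were 8.94% of all genes in the comparison below. In the other barcodes the ribosomal share was 18.2% and 16.2%. The part of these shares in the other differences was not tested. With mitochondrial genes left out of the totals, 512 genes were past 2-fold higher and 903 lower, close to the counts that follow.

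Genes of several roles were past 2-fold apart between 9 and 14 dpp. The cyclins Ccnd2 and Ccnb2 and the steroid enzymes Hsd17b1 and Hsd17b3 were past 2-fold lower at 14 dpp. The protease inhibitor Serpina5, the defensin Defb19, the metalloproteinase inhibitor Timp2 and the X-linked gene Tsx were past 2-fold higher. UMIs were summed over the Sertoli barcodes of each age, and a log2 ratio of CPM + 1 (14 dpp over 9 dpp) was taken for 10838 genes with at least 50 UMIs in all. Of these, 464 (4.28%) were past 2-fold higher at 14 dpp and 969 (8.94%) past 2-fold lower, and the median of all genes was −0.14. Higher genes were 32.4% of those past 2-fold, and 43.2% with TMM scaling, which moved the median of all genes to −0.01. Of the 464 higher genes 391 had a higher level in the Sertoli barcodes than in the other barcodes at 14 dpp, and of the 969 lower genes 441 did at 9 dpp. Of all 10838 genes 5714 did, each taken at the age where its level in Sertoli barcodes was higher. The other barcodes are all kept barcodes that the rule did not choose. They include those left out for germ gene UMIs alone, 137 at 9 dpp and 390 at 14 dpp, which carry Sertoli genes. Intervals of a log2 ratio are those of the counts without the added 1, so at low counts the ratio can lie outside them.

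**Figure D2:**
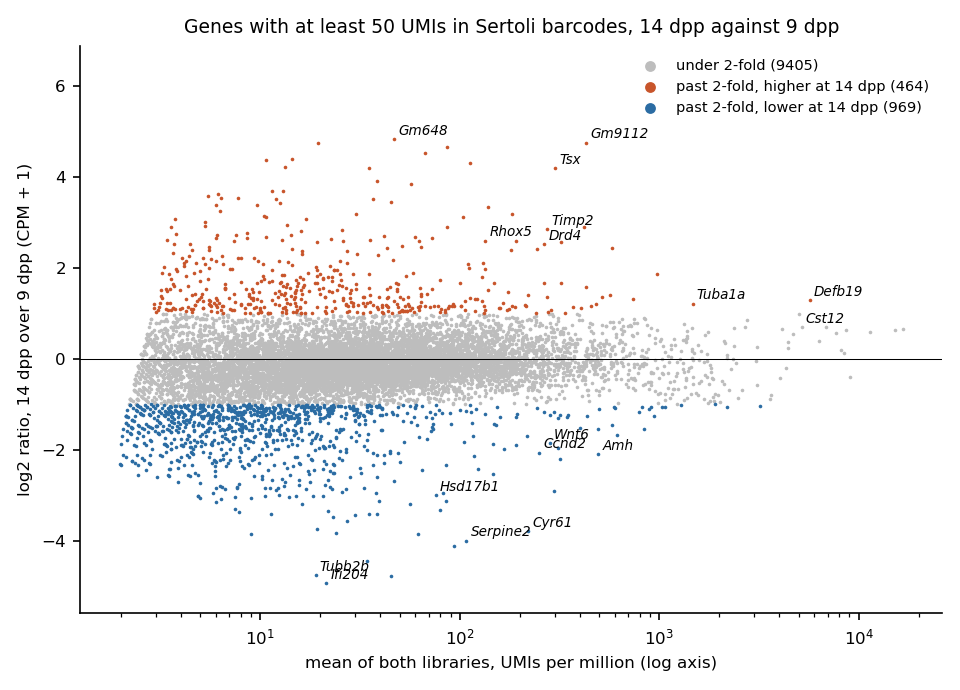
Log2 ratio of each of the 10838 genes (14 dpp over 9 dpp, CPM + 1) against its mean level in the Sertoli barcodes (CPM, log scale), 1 library per age. Red points are the 464 genes past 2-fold higher at 14 dpp and blue points the 969 past 2-fold lower, and genes with values in the text are named.

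The genes of the rule were themselves not level, and are given as a description because they chose the barcodes. Amh, anti-Müllerian hormone, which makes the Müllerian ducts regress and marks the immature Sertoli cell, had 802 CPM at 9 dpp (787 to 818) and 187 CPM at 14 dpp (177 to 197), a log2 ratio of −2.10 (−2.19 to −2.02). After thinning every barcode to 5000 UMIs, Amh was detected in 93.3% and 58.2% of Sertoli barcodes and in 2.53% and 0.817% of germ cell barcodes thinned alike. Sox9, the transcription factor that starts Sertoli cell fate, had 372 and 250.3 CPM. Cldn11, a claudin of the blood-testis barrier, went the other way with 984 and 1687 CPM. Wt1, a transcription factor that keeps Sertoli identity, had 442 and 400.0 CPM, and Dhh, the hedgehog ligand that acts on Leydig and peritubular cells, 272 and 204 CPM. The 3 germ genes of the rule, which the rule caps, were past 2-fold higher at 14 dpp, Dazl with 26.1 and 60.01 CPM.

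Maturation genes were past 2-fold in both directions. Of 27 tested genes of Sertoli maturation, 20 had a log2 ratio above 0, 8 were past 2-fold higher and 1 lower (29.6% and 3.70%, against 4.28% and 8.94% of all genes), with a median log2 ratio of 0.68 against −0.14 for all genes. Tsx, a gene of unresolved function named for its testis-specific expression (ENSMUSG00000031329, GRCm38 chromosome X, 103414467 to 103424580, plus strand), had 30.1 CPM at 9 dpp (27.2 to 33.2) and 569.9 CPM at 14 dpp (552 to 588), a log2 ratio of 4.20 (4.09 to 4.40). It was detected in 13.6% and 76.8% of thinned Sertoli barcodes and in 0.180% and 1.98% of thinned germ cell barcodes, so that both its level and the share of barcodes that carry it were higher at the later age. Rhox5, an androgen-regulated homeobox gene, had 37.3 CPM at 9 dpp (34.03 to 40.8) and 232 CPM at 14 dpp (221 to 243) and was detected in 13.5% and 48.1% of thinned barcodes and 0.316% and 0.817% of germ cell ones. Drd4, a dopamine receptor, had 78.1 CPM at 9 dpp (73.3 to 83.02) and 453 CPM at 14 dpp (437 to 469). Serpina5, a secreted inhibitor of serine proteases, had 215 CPM at 9 dpp (207 to 223) and 648 CPM at 14 dpp (629 to 667). Trf, the iron carrier transferrin, had 6.42 and 23.7 CPM.

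Members of the maturation list differed in size and, in places, in direction. Shbg, which encodes androgen-binding protein, and Eppin, a secreted protease inhibitor, had log2 ratios of 0.98 and 0.98, just short of 2-fold, and of 1.12 each with TMM scaling. Clu, the secreted glycoprotein clusterin, had 7541 and 8699 CPM, a log2 ratio of 0.21 (0.19 to 0.22). Aqp8, a water channel, had 1 UMI at 9 dpp and 151 at 14 dpp, with an interval of the log2 ratio from 5.60 to 13.42. Cldn3, a claudin of the mouse barrier, had 0.387 and 12.3 CPM. Fshr, the FSH receptor, went the other way with 20.6 and 11.97 CPM, a log2 ratio of −0.73 (−1.15 to −0.42). The 1 gene past 2-fold lower was Hsd17b1, which reduces estrone to estradiol, with 135 and 16.1 CPM.

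Of 19 tested genes of the immature Sertoli cell, 9 were past 2-fold lower at 14 dpp (47.4%, against 8.94% of all genes) and 1 higher, 5 had a log2 ratio above 0, and the median log2 ratio was −0.98. Serpine2, a protease inhibitor known as protease nexin 1, had 204 CPM at 9 dpp (196 to 212) and 11.8 CPM at 14 dpp (9.44 to 14.6), a log2 ratio of −4.00 (−4.44 to −3.79). Hsd17b3, which makes testosterone from androstenedione and is found in fetal Sertoli cells, had 144 and 27.9 CPM. Ptgds, a prostaglandin D synthase of the fetal Sertoli cell, had 82.2 and 11.97 CPM. These enzymes and Serpine2 were each past 4-fold lower at 14 dpp. Krt8 and Krt18, the keratins of simple epithelia that mark the immature state, had 14.1 and 0.845 CPM and 11.8 and 0.845 CPM. Ccnd2, the cyclin D2 that drives Sertoli division, had 403 CPM at 9 dpp (392 to 414) and 95.9 CPM at 14 dpp (88.9 to 103). Thra, the thyroid hormone receptor through which that hormone limits Sertoli number, had 284 and 144 CPM, a log2 ratio of −0.98 (−1.09 to −0.88). Etv5 was the 1 member past 2-fold higher, with 6.88 and 14.9 CPM.

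**Figure D3:**
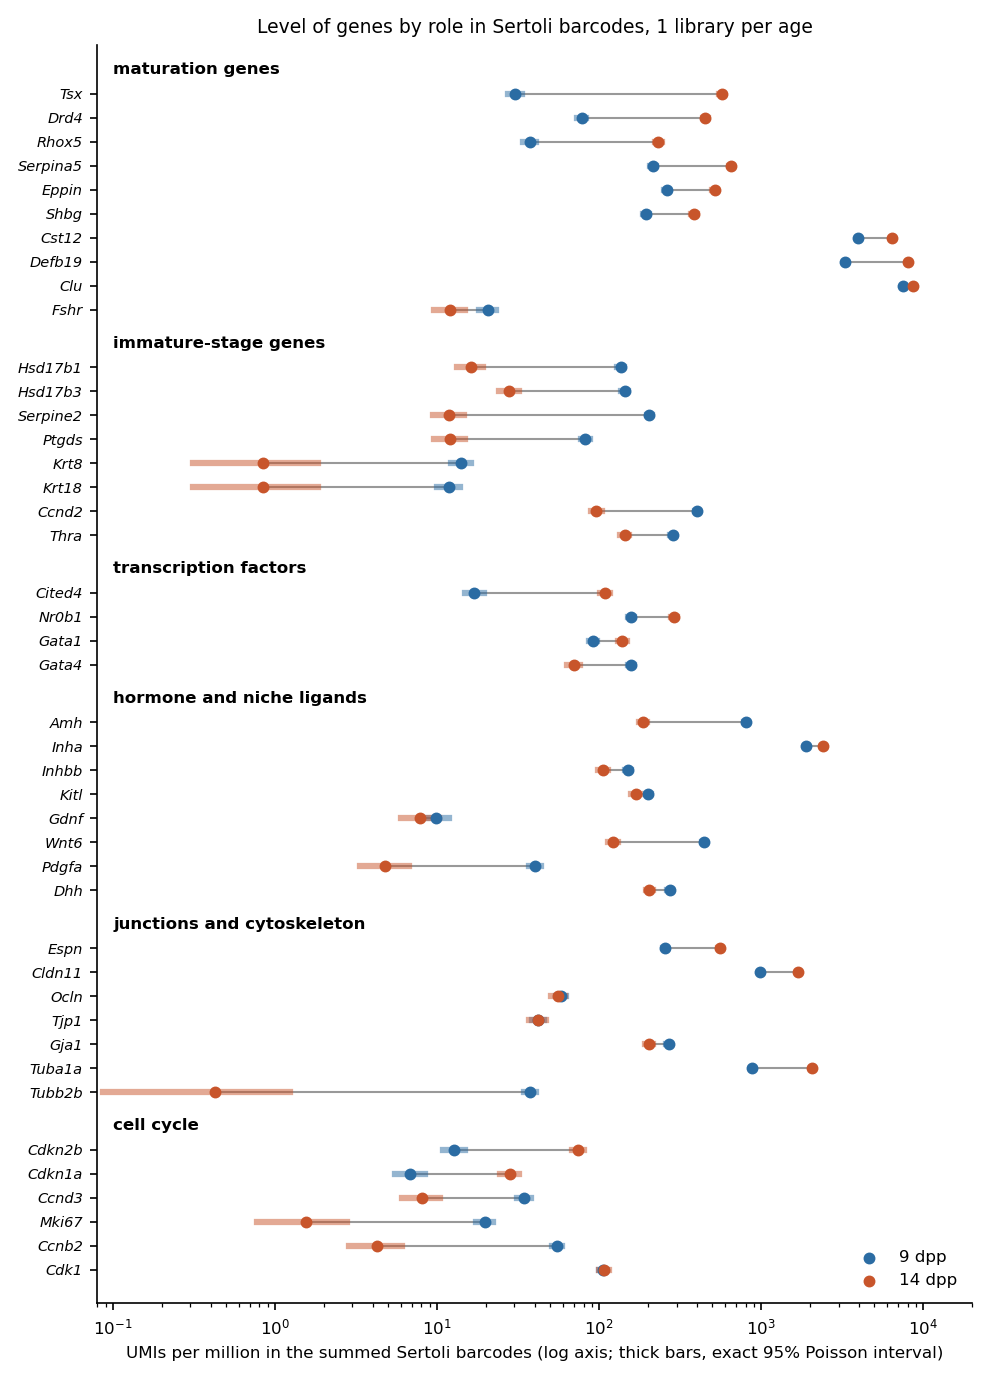
Level of genes in the Sertoli barcodes at 9 dpp (blue) and 14 dpp (red), in CPM on a log axis, grouped by role, with thick bars for the exact 95% Poisson interval and 1 library per age. Most maturation genes shown lie to the right at 14 dpp. The 8 genes shown as immature-stage lie to the left, and they include Hsd17b1, which the text counts on the maturation list. Ocln, Tjp1, Cdk1 and Gdnf overlap.

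Several secreted-protein genes of the tubule sit in clusters in the genome, and neighbours did not all move alike. In the cystatin cluster on chromosome 2, Cst12 (ENSMUSG00000027443, GRCm38 chromosome 2, 148789361 to 148793546, plus strand) had 3932 CPM at 9 dpp (3898 to 3967) and 6426 CPM at 14 dpp (6367 to 6485). Cst9, a gene of the rule, had 5438 CPM at 9 dpp (5397 to 5478) and 7177 CPM at 14 dpp (7115 to 7239.9) (ENSMUSG00000027445, GRCm38 chromosome 2, 148835147 to 148838738, plus strand). Cst8, which lies between them, had 45.95 CPM at 9 dpp (42.3 to 49.8) and 23.8 CPM at 14 dpp (20.4 to 27.7) (ENSMUSG00000027442, GRCm38 chromosome 2, 148798785 to 148805595, plus strand), so that the middle gene was lower at 14 dpp while those beside it were higher. In the defensin cluster of the same chromosome, Defb19 had 3287 CPM at 9 dpp (3256 to 3319) and 8105 CPM at 14 dpp (8039 to 8172), Defb36 1123 and 1804 CPM and Defb45 62.04 and 151 CPM. Defb42 on chromosome 14 went the other way, with 43.2 CPM at 9 dpp (39.7 to 46.98) and 2.96 CPM at 14 dpp (1.83 to 4.52). Cystatins inhibit cysteine proteases and defensins are antimicrobial peptides, and reads may be split wrongly between near-identical members of such families.

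The stretches upstream of these genes are shown because neighbours with opposite changes can then be compared, with a stretch of 194 bases between Gm9112 and Dmrtc1b, X-linked genes described further on. They come from RefSeq promoter entries on GRCm38.p6 (14 of 18 genes searched had one), read on the strand of the first gene named and cut to lie upstream of the first base of each gene in both RefSeq and GENCODE. Capitals mark matches on either strand to any of 6 strings. AGAACA is a half-site of steroid receptors, and ACAAAG is bound by SOX factors. A further string of that family is ACAATG. Nuclear receptors bind AGGTCA as a half-site. The GATA factors of the gonad bind the string AGATAA and also the string TGATAA.
Cst12, chr2:148789115-148789360, plus strand: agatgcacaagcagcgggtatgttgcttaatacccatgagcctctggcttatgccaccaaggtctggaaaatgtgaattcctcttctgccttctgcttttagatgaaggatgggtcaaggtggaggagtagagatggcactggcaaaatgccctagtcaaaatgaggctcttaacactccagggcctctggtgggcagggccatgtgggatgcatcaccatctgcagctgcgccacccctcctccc
Cst8, chr2:148798589-148798784, plus strand: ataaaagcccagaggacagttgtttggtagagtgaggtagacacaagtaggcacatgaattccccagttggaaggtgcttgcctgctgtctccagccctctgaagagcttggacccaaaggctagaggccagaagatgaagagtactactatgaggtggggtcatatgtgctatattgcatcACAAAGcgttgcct
Cst9, chr2:148834897-148835146, plus strand: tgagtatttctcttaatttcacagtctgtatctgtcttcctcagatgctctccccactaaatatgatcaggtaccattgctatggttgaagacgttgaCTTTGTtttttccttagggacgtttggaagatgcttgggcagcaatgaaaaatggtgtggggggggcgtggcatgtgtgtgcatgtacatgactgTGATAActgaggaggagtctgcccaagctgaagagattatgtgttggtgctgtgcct
Defb36, chr2:152604077-152604326, plus strand: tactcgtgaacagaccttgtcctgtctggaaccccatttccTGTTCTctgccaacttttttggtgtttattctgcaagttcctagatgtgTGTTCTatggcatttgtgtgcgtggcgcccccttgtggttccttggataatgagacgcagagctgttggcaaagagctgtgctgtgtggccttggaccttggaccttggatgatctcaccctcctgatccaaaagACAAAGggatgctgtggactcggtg
Gm9112 and Dmrtc1b, chrX:102707671-102707864, minus strand: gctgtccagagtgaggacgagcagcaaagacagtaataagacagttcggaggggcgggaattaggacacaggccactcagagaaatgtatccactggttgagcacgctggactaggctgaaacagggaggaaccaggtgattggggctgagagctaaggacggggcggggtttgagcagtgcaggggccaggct
The Defb36 stretch holds AGAACA on the other strand at both of its first capitals and ACAAAG at the last, Cst9 holds ACAAAG on the other strand and TGATAA, Cst8 holds ACAAAG, and Cst12 and the 194 bases between Gm9112 and Dmrtc1b hold none of them. The part of the Cst8 entry that was cut off holds AGGTCA. Such short strings are common. In all 32851 entries, taken over 250 bases, which is longer than the stretches of Cst12, Cst8 and the X-linked genes (246, 196 and 194 bases), AGAACA was found in 16.1%, ACAAAG in 16.5%, ACAATG in 10.7%, AGGTCA in 14.0%, AGATAA in 9.99% and TGATAA in 7.94%. A match is a string of letters and not a measured binding site.

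X-linked genes were among those with the largest ratios in the higher direction. Of 415 X-linked genes tested (3.83% of all genes tested), 45 were past 2-fold higher at 14 dpp (10.8%, against 4.28% of all genes). X-linked genes were 5 of the 15 higher genes named by the fixed rule and 16 of the 113 genes past 4-fold higher. In the lower direction 35 of the 415 were past 2-fold (8.43%, against 8.94% of all genes), 9 of the 197 genes past 4-fold lower were X-linked, and 0 of the 15 named. Gm648, an X-linked gene of unresolved function, had 2.24 CPM at 9 dpp (1.50 to 3.22) and 91.8 CPM at 14 dpp (84.9 to 99.2). Pcsk1n, a secreted inhibitor of prohormone convertases, had 97.6 CPM at 9 dpp (92.3 to 103) and 743 CPM at 14 dpp (723 to 763). Within 1 stretch of the X chromosome several genes were higher together. Gm9112 (ENSMUSG00000079479, GRCm38 chromosome X, 102706890 to 102707635, minus strand) had 29.6 CPM at 9 dpp (26.7 to 32.7) and 831 CPM at 14 dpp (810.1 to 853) and was detected in 9.92% and 89.4% of thinned Sertoli barcodes and 3.92% and 4.73% of germ cell ones. Its neighbour Dmrtc1b had 1.01 and 24.9 CPM, Gm3880 35.1 and 331 CPM, Dmrtc1a 154 and 489 CPM, 1700011M02Rik 418 and 1536 CPM and 1700018G05Rik 181 and 984 CPM, and Tsx lies at the far end. Chic1, between them and Tsx, went the other way with 7.97 and 4.51 CPM. Of the 31-base stretches of Gm9112 transcripts 43.9% also occur in another gene of this group, as do 37.7% of those of 1700011M02Rik, so the split of reads between these is uncertain. Tsx shares 0%.

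Further genes named by the same rule had varied roles. Helt, a transcription factor of the hairy family, had 2.71 and 67.6 CPM, and Car7, a carbonic anhydrase, 0.464 and 26.2 CPM. Ppp2r2c, a regulatory subunit of protein phosphatase 2A, had 0.387 and 28.3 CPM, Tpbgl, a membrane glycoprotein, 3.87 and 73.1 CPM, and Lhfp, a tetraspan membrane protein, 6.58 and 108 CPM. Of the genes lower at 14 dpp, Cyr61, a matrix protein and target of YAP signalling, had 413 CPM at 9 dpp (402 to 425) and 29.2 CPM at 14 dpp (25.3 to 33.4). Lgals7, a galectin, had 178 and 9.30 CPM, Ctsh, a lysosomal protease, 117 and 7.18 CPM, Lpl, lipoprotein lipase, 71.2 and 5.78 CPM, S100a1, a calcium-binding protein, 45.5 and 2.25 CPM, and Ltbp3, which binds latent TGF-beta, 25.6 and 2.25 CPM. Also lower were Arhgef17 with 51.1 and 3.38 CPM, Stom, the membrane protein stomatin, with 21.6 and 1.13 CPM, and Mafa, a transcription factor, with 30.1 and 2.39 CPM. Also higher were Tslrn1 with 9.90 and 217 CPM and Gm10605 with 1.08 and 22.8 CPM. In stromal barcodes Cyr61 had 458 and 542 CPM and Lpl 25.7 and 30.98 CPM. Tubb2b, a neuronal-type beta-tubulin, and Ifi204, an interferon-inducible DNA sensor, had 484 and 550 UMIs at 9 dpp and 3 UMIs each at 14 dpp, with intervals of the log2 ratio of −8.75 to −4.91 and −8.94 to −5.10. Both were also lower at 14 dpp in stromal barcodes, Tubb2b with 28.1 and 9.62 CPM and Ifi204 with 133 and 18.9 CPM.

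Some of the largest ratios were not limited to Sertoli barcodes. Gm10320 had 88.1 and 2.25 CPM in Sertoli barcodes, 73.5 and 3.40 CPM in germ cell barcodes and 90.3 and 4.21 CPM in stromal barcodes. Tpm3-rs7, a gene related to tropomyosin 3, had 71.5 and 7.32 CPM in Sertoli barcodes, and 47.8 and 2.86 CPM and 79 and 5.41 CPM in the others. Both thus differ between the libraries as a whole. Of the 15 lower genes named, 6 were past 2-fold lower in germ cell or stromal barcodes too, and of the 15 higher genes 6 were past 2-fold higher in either. Hba-a1, Hba-a2 and Hbb-bs, the globin genes of red blood cells, also met the rule, with 922, 272 and 1180 UMIs at 14 dpp. A single barcode held 894, 262 and 1111 of these, so the globin values describe 1 barcode. In barcodes with 0 germ gene UMIs the log2 ratio of Hba-a1 was −0.12.

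Of 20 tested transcription factors of Sertoli fate, 5 were past 2-fold higher and 5 lower (25% each, against 4.28% and 8.94% of all genes), with a median log2 ratio of −0.26, which was 0.29 in barcodes with 0 germ gene UMIs and 0.19 in those with 5000 to 20000 UMIs. Gata4, a factor of gonad formation that acts on the Amh promoter, had 158 CPM at 9 dpp (151 to 165) and 69.6 CPM at 14 dpp (63.6 to 76). Gata1, a related factor of postnatal Sertoli cells, had 91.8 and 139 CPM. Gata6 had 123 and 86.3 CPM. Cited4, a coactivator that binds CBP and p300, had 16.9 CPM at 9 dpp (14.8 to 19.3) and 108 CPM at 14 dpp (101 to 116), and was detected in 7.61% and 42.2% of thinned Sertoli barcodes and 1.08% and 1.29% of germ cell ones. Nr0b1, the nuclear receptor DAX1, had 157 and 289 CPM, while Nr5a1, its partner SF1, had 93.7 and 73.8 CPM. Hey1, a Notch effector, had 4.25 and 13.2 CPM, and Heyl of the same family 10.1 and 3.52 CPM. In the list of Notch and hedgehog genes, which holds both, 1 of 11 was past 2-fold higher and 5 lower (9.09% and 45.5%), with a median of −0.36.

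Inhibin subunits were within 2-fold. Inha, the inhibin alpha subunit that feeds back on FSH, had 1884 and 2404 CPM, and Inhbb, the beta-B subunit, 151 and 106 CPM. Amhr2, the AMH receptor, had 1160.4 and 1609 CPM. Its ligand Amh went the other way, but Amh helped to choose the barcodes, so that contrast is a description only. Of 20 tested genes of this family, 3 were past 2-fold higher and 4 lower (15% and 20%, against 4.28% and 8.94% of all genes), with a median of −0.45. The 4 lower were signal carriers, Smad3 with 38.1 and 12.4 CPM, the inhibitory Smad6, and the activin receptors Acvr2b and Acvr1b. The 3 higher were the ligand Tgfb1, with 17.9 and 47.6 CPM, and the helix-loop-helix inhibitors Id3 and Id4, with 75.3 and 183 CPM and 6.65 and 20 CPM. Id4 was under 2-fold with a pseudocount of 10 CPM, at 0.85. In the FSH and cAMP list 2 of 17 were past 2-fold higher (11.8%, against 4.28% of all genes), Pde4d, which degrades cAMP, with 6.65 and 45.4 CPM, and Srd5a1, a steroid 5-alpha-reductase, with 2.32 and 12.1 CPM, and none was lower.

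Of 12 tested ligands by which Sertoli cells act on germ cells and their surroundings, 5 were past 2-fold lower (41.7%, against 8.94% of all genes) and none higher, 2 had a log2 ratio above 0, and the median was −0.66. Wnt6 had 443 CPM at 9 dpp (431 to 454) and 122 CPM at 14 dpp (114 to 130.1), and Pdgfa, the ligand that acts on peritubular and Leydig precursors, had 40.1 CPM at 9 dpp (36.8 to 43.8) and 4.79 CPM at 14 dpp (3.32 to 6.69). Gdnf, the factor that maintains spermatogonial stem cells, had 9.90 CPM at 9 dpp (8.26 to 11.8) and 7.89 CPM at 14 dpp (5.96 to 10.2) and a log2 ratio of −0.29 (−0.81 to 0.14), so its direction is within counting error at this depth. Over barcodes with 5000 to 20000 UMIs its log2 ratio was 0.27. Kitl, the ligand of KIT on differentiating spermatogonia, had 201 CPM at 9 dpp (193 to 209) and 168 CPM at 14 dpp (158 to 177).

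Of 21 retinoid genes 3 were past 2-fold higher and 2 lower (14.3% and 9.52%, against 4.28% and 8.94% of all genes), with a median of −0.21. Aldh1a1, a retinaldehyde dehydrogenase that makes retinoic acid, had 808 CPM at 9 dpp (792 to 823) and 552 CPM at 14 dpp (535 to 570.0), and Aldh1a2 had 134 and 108 CPM. Stra6, the receptor for retinol-binding protein, had 86.9 and 42.1 CPM, and was short of 2-fold with TMM scaling, at −0.89. Cyp26a1, a retinoic acid hydroxylase, had 1.32 CPM at 9 dpp (0.766 to 2.11) and 19.6 CPM at 14 dpp (16.5 to 23.1), while Cyp26b1, the related enzyme of fetal Sertoli cells, had 10.98 and 11.1 CPM. Fabp5, a carrier of fatty acids and retinoic acid, had 184 and 389.9 CPM, and a log2 ratio of 0.74 in barcodes with 0 germ gene UMIs.

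Of 30 tested junction genes, 2 were past 2-fold higher and 5 lower (6.67% and 16.7%, against 4.28% and 8.94% of all genes), with a median of −0.33, and 8 had a log2 ratio above 0. Ocln, the tight junction protein occludin, had 57.9 and 55.6 CPM with an interval of the log2 ratio of −0.24 to 0.12, and Tjp1, the scaffold ZO-1, had 41.7 and 41.7 CPM with one of −0.21 to 0.21. Gja1, the gap junction protein connexin 43, had 269 and 203 CPM. Espn, the actin bundler espin of the ectoplasmic specialization, had 255 CPM at 9 dpp (246 to 264) and 558 CPM at 14 dpp (540.4 to 575). Lower were Nectin3, an adhesion molecule, with 14.2 and 1.13 CPM, the polarity protein Pard3 with 8.90 and 1.41 CPM, and the desmosome genes Jup, Pkp2 and Dsc2, Jup with 50.6 and 21.6 CPM and Dsc2 with 1 UMI at 14 dpp and an interval of −10.53 to −2.67.

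In the cytoskeleton list 1 of 30 genes was past 2-fold higher and 8 lower (3.33% and 26.7%, against 4.28% and 8.94% of all genes), with a median of −0.18. Tuba1a, an alpha-tubulin, had 883 CPM at 9 dpp (866 to 899) and 2057 CPM at 14 dpp (2024 to 2091). Pfn1, the actin-binding protein profilin, had 269.9 and 117 CPM, and Vim, the vimentin of Sertoli intermediate filaments, 1132 and 1169 CPM. Of 24 matrix genes 3 were past 2-fold higher and 5 lower (12.5% and 20.8%), with a median of −0.12. Timp2, an inhibitor of metalloproteinases, had 65.8 CPM at 9 dpp (61.4 to 70.3) and 482 CPM at 14 dpp (466 to 499), and was detected in 27.04% and 87.8% of thinned barcodes and 2.07% and 4.82% of germ cell ones, while Mmp2, the gelatinase it inhibits and helps to activate, had 36.8 CPM at 9 dpp (33.6 to 40.3) and 1.83 CPM at 14 dpp (0.975 to 3.13). Serpinh1, the collagen chaperone, had 209.8 and 38.5 CPM. Lamb1 had 25.1 and 4.08 CPM and Lamb2, another laminin beta chain, 38.4 and 86.3 CPM.

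Supply of nutrients and clearance of dying germ cells are functions of the mature cell. Of 31 nutrient genes, 3 were past 2-fold higher and 1 lower (9.68% and 3.23%, against 4.28% and 8.94% of all genes), with a median of 0.11. Hk1, a hexokinase, had 7.66 and 1.27 CPM, and Hk2 158 and 256 CPM. Ldha, a lactate dehydrogenase subunit, had 237 and 138 CPM, and Ldhb, the other, 1825 and 2948 CPM. Within both enzyme pairs the members thus went opposite ways. Slc16a1, a lactate transporter, had 28 and 59.7 CPM. Mt2, a metallothionein, had 76.2 CPM at 9 dpp (71.5 to 81.1) and 414 CPM at 14 dpp (399 to 429.5) in Sertoli barcodes and 1382 and 1130.0 CPM in germ cell barcodes, and the part of germ cell RNA in it was not tested. With the library profile subtracted nothing of its 9 dpp level was left. The log2 ratio of 8.52 that results rests on the added 1 CPM and is not a measured fold. Of 27 phagocytosis genes 3 were past 2-fold higher (11.1%, against 4.28% of all genes) and none lower: Elmo1, an engulfment adaptor, with 30.3 and 79.3 CPM, Mfge8, which bridges dying cells to integrins, with 62.8 and 141 CPM, and Pros1, a ligand of the TAM receptors, with 11.6 and 26.8 CPM. Among 42 genes of cholesterol and lipids 5 were past 2-fold lower (11.9%, near the 8.94% of all genes), among them Npc1, which moves cholesterol out of lysosomes, with 16.5 and 6.76 CPM, and the cholesterol synthesis genes Sqle and Fdps, with 41.5 and 18.5 CPM and 108 and 49.4 CPM. The 1 past 2-fold higher was Soat1, which makes cholesterol esters, with 68 and 171 CPM.

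Of 18 interferon-response and MHC class I genes 9 were past 2-fold higher and 2 lower (50% and 11.1%, against 4.28% and 8.94% of all genes). Their median was 0.94, and 0.42 with a pseudocount of 10 CPM. H2-K1, an MHC class I heavy chain, had 41.1 CPM at 9 dpp (37.7 to 44.7) and 178 CPM at 14 dpp (168 to 188), and no barcode held more than 20 of its 1262 UMIs at 14 dpp. H2-K1 was higher at 14 dpp in the other types as well, with 86.4 and 201 CPM in germ cell barcodes and 24.2 and 66.5 CPM in stromal barcodes. B2m, the chain that pairs with it, had 146 and 151 CPM. Xaf1, an interferon-induced gene, had 7.66 and 25.6 CPM, and Irf7, a factor of the interferon response, 2.86 and 10.4 CPM. Ifitm2, a membrane protein of the same response, went the other way with 155 and 16.8 CPM. The early response and heat shock list had 10 of 32 past 2-fold lower and 1 higher (31.2% and 3.12%), with a median of −0.41. Egr1 and Jun, factors that cells induce within minutes of a stimulus, had 268 and 67.5 CPM and 489.7 and 203 CPM in Sertoli barcodes and 385 and 367 CPM and 629 and 836 CPM in stromal barcodes. Over all other barcodes Egr1 had 127 and 64.3 CPM and Jun 177 and 129 CPM, and in germ cell barcodes Egr1 had 26.7 and 16.7 CPM and Jun 16.3 and 14.7 CPM. How dissociation bears on these genes was not tested.

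**Figure D4:**
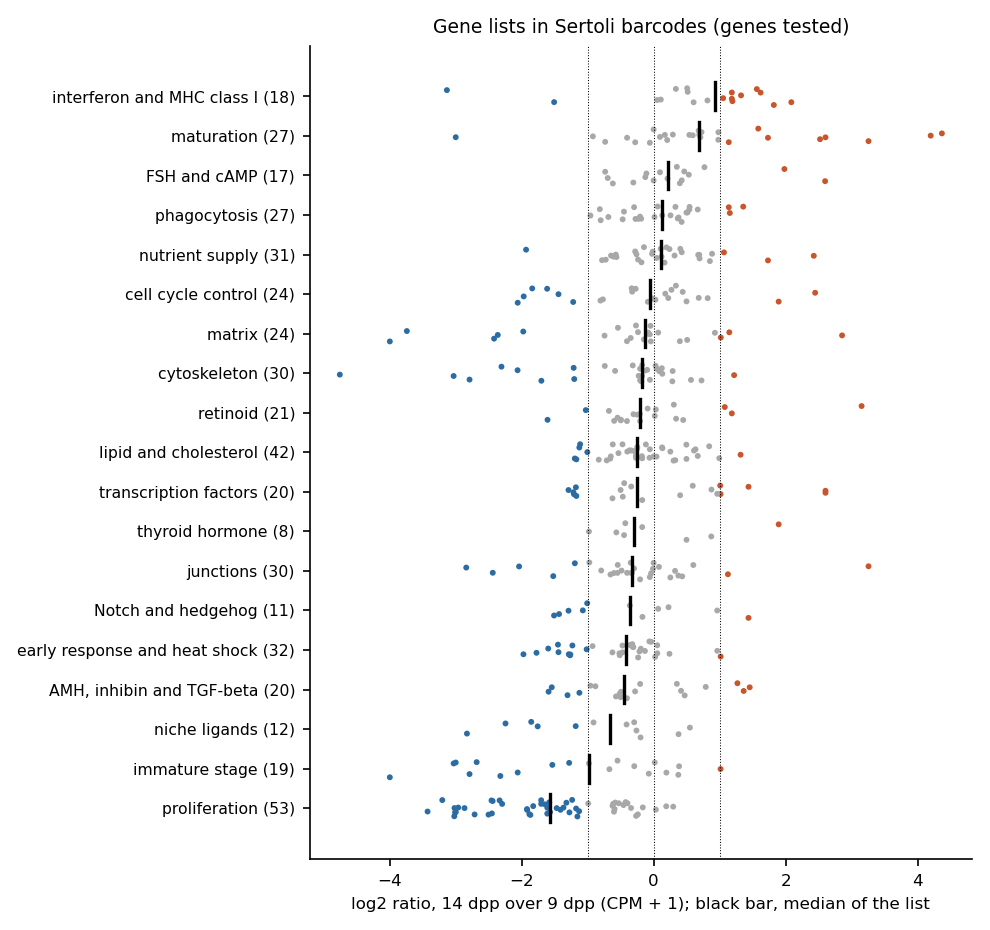
Log2 ratio (14 dpp over 9 dpp, CPM + 1) of each tested gene, by list, in the Sertoli barcodes, with the number of genes tested in brackets, black bars for the median, red for genes past 2-fold higher and blue for lower. The medians of interferon and MHC class I genes, 0.94, and maturation genes, 0.68, lie to the right, and those of immature-stage genes, −0.98, and proliferation genes, −1.57, to the left.

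Of 53 tested genes of DNA replication and mitosis, 36 were past 2-fold lower at 14 dpp (67.9%, against 8.94% of all genes) and none higher, with a median of −1.57, and their sum was 2449 CPM at 9 dpp and 1306 CPM at 14 dpp. In stromal barcodes the sum was 2471 and 1394 CPM, and in germ cell barcodes 9679 and 10573 CPM. Mki67, a marker of dividing cells, had 19.6 CPM at 9 dpp (17.3 to 22.2) and 1.55 CPM at 14 dpp (0.773 to 2.77). Ccnb2, a mitotic cyclin, had 55.2 and 4.23 CPM, Ube2c, which loads the anaphase-promoting complex, 103 and 10.3 CPM, and Top2a, a topoisomerase of dividing cells, 62.3 and 11.6 CPM. Cdk1, the kinase of mitosis, did not follow, with 105 CPM at 9 dpp (99.7 to 111) and 108 CPM at 14 dpp (100.2 to 116). In the same direction as the list were Ccnd2 above, Ccnd3, another D cyclin, with 34.3 and 8.03 CPM, and Cdk6, its partner kinase, with 38.1 and 15.8 CPM. The inhibitors Cdkn2b and Cdkn1a, which hold cells out of division, had 12.7 CPM at 9 dpp (10.8 to 14.8) and 73.7 CPM at 14 dpp (67.5 to 80.3) and 6.81 CPM at 9 dpp (5.46 to 8.39) and 28.03 CPM at 14 dpp (24.3 to 32.2). Cdkn1b, another inhibitor, had 15.2 and 21.8 CPM. Of the 24 genes of cell cycle control these belong to, 2 were past 2-fold higher and 6 lower (8.33% and 25%), with a median of −0.05. Of 8 genes of thyroid hormone action, 1 was past 2-fold higher (12.5%, against 4.28% of all genes), Cdkn1a, and none lower, with a median of −0.30.

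High counts of these genes were found in a minority of barcodes at 9 dpp. Sertoli barcodes with at least 5000 UMIs (736 at 9 dpp and 526 at 14 dpp) were thinned to 5000 UMIs each, which left out 70 and 188 shallower ones. At least 3 UMIs of the proliferation list were present in 91.7% (89.5% to 93.6%) and 94.5% (92.2% to 96.3%), and in 78.6% and 72.0% of stromal barcodes, so this threshold lies within the background of both ages, and the median was 6 UMIs in both. Only 3 and 0 barcodes had none of these UMIs, so the planned comparison of barcodes with and without them could not be made. At a threshold of 20 UMIs, chosen after the distribution was seen, 112 of 736 barcodes passed at 9 dpp (15.2%, 12.7% to 18.0%) and 2 of 526 at 14 dpp (0.380%, 0.0461% to 1.37%). In stromal barcodes the same shares were 11.5% and 7.95%, and in germ cell barcodes 92.3% and 95.1%. In all, 60 and 8 barcodes lay near that threshold, between 15 and 25 UMIs, and the highest barcode had 109 UMIs at 9 dpp and 27 at 14 dpp. A threshold of 3 UMIs of 12 mitotic genes gave 18.9% (16.1% to 21.9%) and 1.14% (0.420% to 2.47%).

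**Figure D5:**
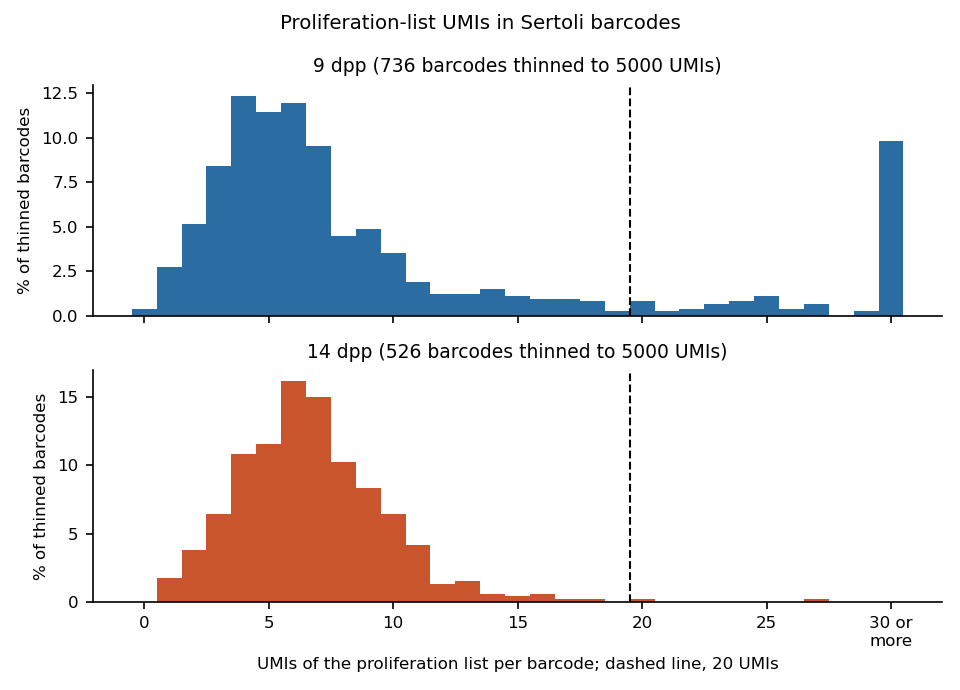
Share of Sertoli barcodes thinned to 5000 UMIs (vertical axis, percent) by the number of UMIs of the proliferation list (horizontal axis, with 30 or more in 1 bar) at 9 dpp (736 barcodes) and 14 dpp (526 barcodes). Both have most barcodes around the median of 6 UMIs, and the group right of the dashed line at 20 UMIs holds 112 barcodes at 9 dpp and 2 at 14 dpp.

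The barcodes with 20 or more of these UMIs at 9 dpp were compared with the rest for genes outside the rule. Inha had 1604 CPM in them and 1946 CPM in the others, and Clu 7020 and 8028 CPM. Of 21 maturation genes none was past 2-fold higher in the barcodes with 20 or more and 1 was lower, beside 146 higher and 154 lower of all 7479 genes compared. Ccnd2 had 305 and 402 CPM, so its level was not limited to these barcodes. Stmn1, a microtubule protein of dividing cells outside the proliferation list, had 1161 and 231 CPM. Of the 112 barcodes, 54.5% had no germ gene UMI, against 61.7% of all Sertoli barcodes at 9 dpp, and Scrublet called 2 doublets. The 2 shares are before thinning and not at like depth, with medians of 15804 and 12287.5 UMIs.

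Among barcodes with under 20 proliferation UMIs, the medians of the maturation and immature lists were close to those over all Sertoli barcodes. The median of the maturation list was 0.65 and that of the immature list −0.99, while that of the proliferation list went from −1.57 to −0.47. Amh had 867 and 197 CPM in these barcodes, and Ccnd2 393 and 93.9 CPM. Cdk1, Cks2, Tpx2, Ccnb2 and Top2a are on the list that sets this split, so the threshold sets their levels in part. Cdk1 had 33.0 CPM at 9 dpp and 109 CPM at 14 dpp, a log2 ratio of 1.70 (1.40 to 2.06). Ccnb2 had 16.3 and 3.44 CPM and Top2a 12.5 and 9.54 CPM. Cks2, a small partner of CDK1, had 103 and 166 CPM, and Tpx2, a spindle assembly factor, 62.8 and 97.0 CPM. Cdk1 had 117 and 150.2 CPM in the other barcodes of each library, and the part of their RNA in this was not tested.

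Some genes that the rule did not use also had much higher levels in Sertoli barcodes than in the others at both ages. By rule, 20 genes with at least 50 CPM at both ages and the largest ratio to the other barcodes were named, as a description and with no test. Gatm, which makes the creatine precursor guanidinoacetate, had 1678 CPM at 9 dpp (1656 to 1701) and 1813 CPM at 14 dpp (1782 to 1844) and was found in 99.9% and 100% of thinned Sertoli barcodes against 8.07% and 8.68% of germ cell barcodes. Slc52a3, a riboflavin transporter, had 199.8 and 386 CPM, Gpr37, an orphan receptor, 134 and 123 CPM, Adora1, an adenosine receptor, 177 and 153 CPM, and Flvcr2, a transporter of the heme carrier family, 65.5 and 62.7 CPM. Qpct, which forms N-terminal pyroglutamate, had 581 and 1095 CPM, and Dmrta1, a factor of the DMRT family, 127 and 124 CPM. Of the 20, Glb1l3 with 126 and 404 CPM, Vsig1 with 91.4 and 257 CPM and Gm14569 with 53.9 and 123 CPM were past 2-fold higher at 14 dpp, and none was past 2-fold lower, where 4.28% and 8.94% of all genes were.

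Sertoli barcodes also varied among themselves. Over thinned barcodes, the variance-to-mean ratio, which is about 1 where barcodes differ only by counting, was 9.55 for Actb, beta-actin, at 9 dpp and 6.64 at 14 dpp, and 7.31 and 3.83 for Lgals1, galectin-1. Lgals1 had at least 10 UMIs in 15.8% of barcodes at 9 dpp and 2.09% at 14 dpp, with 802 and 387 CPM in all. Acta2, smooth muscle actin, had ratios of 14.3 and 15.3, with at least 10 UMIs in 6 barcodes of each library. Those barcodes had a median of 8.5 UMIs of other peritubular myoid genes, against 0 in the remaining ones of each library. Malat1, a nuclear RNA, had ratios of 10.2 and 17.6.

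In organ culture, barcodes chosen by the same rule had lower levels of several genes that were high at 14 dpp. Tsx had 6.42 and 15.8 CPM after 2 and 7 days of culture, Gm9112 0.321 and 0.368 CPM, Drd4 7.39 and 68.6 CPM and Rhox5 3.37 and 48.6 CPM. Serpina5 had 199 and 319 CPM and Cst12 2887 and 2746 CPM, also under their 14 dpp levels. H2-K1 had 883 and 289.7 CPM, above both in vivo values. The cultures started at 7 dpp and are single libraries too, and these values were not tested against those in vivo.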

How the data were processed

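Cells of mouse testis were measured by droplet single-cell RNA sequencing in 1 library per group. The values are the deposited matrices of raw UMI counts per gene and barcode, made with Cell Ranger 3.0.2 on mm10, per the submitters' processing notes. Other settings are not given in the sources used here.

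The rule for Sertoli barcodes, the gene lists and the comparisons were chosen with earlier results of these data known. UMIs were summed over the Sertoli barcodes of each age and divided by their total (CPM). Genes with at least 50 UMIs over both ages were compared by log2 of CPM + 1, with exact Poisson, conditional binomial and Clopper-Pearson intervals. These cover counting error only. Named genes were the 15 with the largest log2 ratio in each direction with at least 20 CPM at either age, the 20 with the largest ratio to other barcodes and at least 50 CPM at both, the 15 most variable (of which a few are described), and members of the lists. These leave out mitochondrial genes and genes of the rule, and the first also genes with a higher level in the other barcodes than in Sertoli barcodes. Shares of barcodes with a UMI were taken after thinning to 5000 UMIs, and germ cell barcodes thinned alike give the background. Stromal comparison barcodes had at least 0.5% of UMIs in stromal genes. Doublets were called with Scrublet in scanpy 1.11.5 (expected rate 6%) and kept, and were left out as an alternative. Gene positions are from GENCODE on GRCm38. Calculations used python 3.11.15, numpy 2.4.6, scipy 1.17.1 and pandas 2.3.3, and the TMM factors R 4.3.3 and edgeR 4.0.16. The comparison was tested on simulated data.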

Additional observations from a re-analysis of the deposited data

How the results depend on the processing

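Of the alternatives tried, these moved a count of genes past 2-fold by over 1.5 times in either direction: a pseudocount of 10 CPM gave 200 higher and 248 lower, a minimum of 200 UMIs 290 and 501, and genes higher in Sertoli than in other barcodes 441 lower. The share of Sertoli barcodes was 9.39% at 9 dpp and 4.73% at 14 dpp with 0 germ gene UMIs allowed, 17.8% and 17.4% without that limit, and 8.98% at 14 dpp with at most 10% mitochondrial UMIs. The share with proliferation UMIs, 91.7% and 94.5% at 3 or more, was 89.3% and 89.2% with 0 germ gene UMIs, 68.9% and 71.6% thinned to 3000 UMIs, 97.4% and 88.1% without thinning, 99.6% and 100% at 1 or more, 70.9% and 77.2% at 5 or more, and 15.2% and 0.380% at 20 or more. The last threshold, the under-20 barcodes, the mitochondrial genes left out and the genes higher in Sertoli barcodes were chosen after seeing the data. Size factors by median of ratios gave 586 higher and 781 lower, TMM 589 and 773. Of 78 genes past 2-fold, 935 of 936 values kept their sign and 918 stayed past 2-fold. The exception in sign was Hba-a1, −0.12 with 0 germ gene UMIs. The median of the proliferation list ran from −2.98 with free RNA subtracted to −0.47 in barcodes with under 20 of its UMIs. The median of the interferon and MHC class I list was 0.42 with a pseudocount of 10 CPM, under that of maturation, 0.68. The cause of these shifts was not tested. No paired analysis was possible because each age is a single library. Depth limits genes with few UMIs, whose intervals are wide: that of Gdnf holds 0.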
